A study of Homo sapiens with 4 samples.

Results

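The mRNA of 10 S100 genes (S100A2, S100A3, S100A4, S100A6, S100A10, S100A11, S100A13, S100A14, S100A16 and S100P) was followed in the human endothelial line EA.hy926, among 62443 genes in the table. The genes were selected on their FPKM in these same libraries, with the difference between miR-NC and miR-187 in view. Their differences are therefore given as a description, with no test. To see how miR-187 alters the transcriptome of endothelial cells, 2 libraries were sequenced from EA.hy926 cells given miR-NC, a control miRNA, and 2 from cells given miR-187. EA.hy926 is a hybrid of umbilical vein endothelial cells and a lung carcinoma line, so it is endothelial only in part. All 4 libraries share this line. The study's methods describe mimics delivered by lipid transfection, and the dose given to these cells is not stated in the sources used here. Nothing says that the replicates were separate cultures, so each p-value below reflects the spread among these 4 libraries alone, and that spread may be technical. The libraries hold mRNA, and the level of miR-187 itself was not analysed here.

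S100 proteins are small calcium-binding proteins that act mostly as dimers. Each subunit carries a pair of EF-hands, the helix-loop-helix motif that holds a calcium ion, and calcium binding exposes a surface that grips partner proteins such as annexins and nonmuscle myosin. Inside cells they tune membrane, cytoskeletal and nuclear partners, and several leave the cell and act on receptors such as RAGE and TLR4. On endothelial cells, S100A10 in complex with annexin A2 is known as a surface site for plasminogen activation. Most human S100 genes lie in a cluster on the long arm of chromosome 1.

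The mimics listed for the study are shown because their seeds decide which mRNA sites could pair with them. The seed, bases 2 to 8 counted from the 5′ end, is in capitals:
miR-187 mimic: uCGUGUCUuguguugcagccgg
miR-NC mimic: uUGUACUAcacaaaaguacug
The miR-187 mimic has the letters of the mature miR-187-3p of RefSeq, which lies at chr18:35904835-35904856 on the minus strand of GRCh38.p14. A site that pairs with the whole seed of miR-187 (7mer-m8) reads AGACACG in the mRNA. A 7mer-A1 site reads GACACGA, an 8mer AGACACGA and a 6mer GACACG.

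Values are FPKM, a fragment count divided by transcript length and by library size, so that levels can be compared between genes. FPKM summed to 736702 to 763221 per library. The 100 most abundant genes of each library took 61.7% and 64.2% of that sum in the miR-NC libraries, and 69.8% and 70.2% in the miR-187 libraries. The 8196 genes that reached 1 FPKM in 2 or more libraries were tested. Their median log2 fold change on the log2(FPKM + 1) scale was -0.39, and 85.2% of them were below 0, so most genes were listed lower with miR-187. Changes below are to be read against that shift. Of 13 endothelial markers in the table, 9 reached 1 FPKM in miR-NC cells and 8 in miR-187 cells, and their summed level was 354 and 448 FPKM against 226 and 247 FPKM. CLDN5 was listed at 0 in every library and VWF was between 0.0134 and 0.077 FPKM. Of 9 epithelial markers, 3 (KRT7, KRT8 and KRT18) reached 1 FPKM in each library, with a sum of 4765 to 5192 FPKM over the 4 libraries, and CDH1 and ESRP1 were listed at 0. Of 9 fibroblast and smooth muscle markers none reached 1 FPKM. Of 9 leukocyte markers, CD68 and LYZ did, with a list sum of 46.3 to 74.3 FPKM, while PTPRC, ITGAM, CD3E and TYROBP were among those listed at 0. The summed endothelial level was thus lower in the same libraries as the S100 genes, with ESAM, EGFL7 and ENG giving most of it, and its part in what follows was not tested. The list did not move as one: of its 9 tested genes 5 fell and 1 rose (limma, adjusted over all tested genes). The same test called 27.3% of all tested genes lower and 1.49% higher. With libraries scaled so that the typical gene did not change (median of ratios), 2 of the list fell and 1 rose. On FPKM as deposited the gene that rose was CLEC14A, an endothelial lectin, from 1.37 and 2.45 FPKM to 3.93 and 3.59 FPKM (limma log2 fold change 0.74 ± 0.26 SE, adjusted p = 0.0486). That call was lost with each library rescaled to 1 sum (TPM), without miR-NC replicate 1 and without either miR-187 replicate. In bulk libraries, fewer cells that express a gene and less of its RNA per cell cannot be told apart.

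Most of the S100 mRNA in these cells came from few genes. The 10 genes together had 5233 ± 51.7 FPKM in miR-NC cells and 3527 ± 150 FPKM in miR-187 cells (SD, n = 2), which was 0.709% and 0.467% of all FPKM. S100A6, S100A10, S100A11 and S100A16 made up 96.3% of the S100 sum with miR-NC and 97.3% with miR-187. S100A14, an epithelial member, and S100P, named for the placenta and a partner of ezrin, were listed at 0 in all 4 libraries. Every one of the other 8 genes was lower in both miR-187 libraries than in both miR-NC libraries, an arrangement that 65.4% of all tested genes showed, against 5.93% with the opposite one. The distances differed widely within the family. S100A4 was 13.5-fold lower, S100A3 3.30-fold and S100A2 3.25-fold, whereas the 4 abundant genes were between 1.13-fold and 1.96-fold lower and S100A13 was 1.54-fold lower. A mean FPKM at least 3-fold lower was found for 3.94% of all tested genes.

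**Figure D1:**
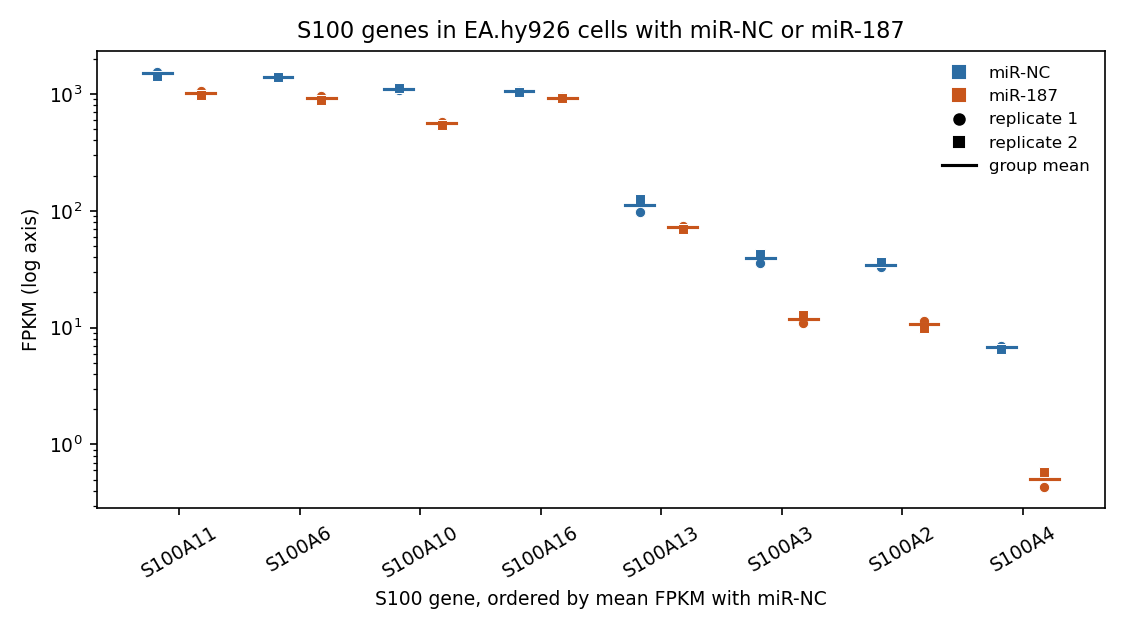
FPKM (log axis) of the 8 S100 genes with a value above 0, in each miR-NC (blue) and miR-187 (orange) library, with circles for replicate 1, squares for replicate 2 and lines for group means. In every gene both miR-187 libraries lie below both miR-NC libraries, by the widest margin for S100A4 (7.01 and 6.59 against 0.430 and 0.579 FPKM) and by the narrowest for S100A16 (1062 and 1049 against 940 and 921 FPKM).

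S100A4, also called metastasin, binds the heavy chain of nonmuscle myosin IIA and loosens its filaments, and it is widely studied in cell motility. It was the scarcest of the detected S100 genes. S100A4 (ENSG00000196154) had 7.01 and 6.59 FPKM in the miR-NC libraries and 0.430 and 0.579 FPKM in the miR-187 libraries. The groups stood far apart, and both miR-187 libraries were under the 1 FPKM of the expression filter, which the gene passed only through its miR-NC libraries. Its log2 fold change was -2.38 ± 0.24 (SE) on the log2(FPKM + 1) scale. Each SE of a log2 fold change given here is limma's, which draws on the spread of other genes besides the gene's own. That log2 scale understates the change of a gene this low: with a pseudocount of 0.1 in place of 1 the log2 fold change was -3.52. Only 0.134% of tested genes had a lower log2 fold change. By mean level it went from place 3650 to place 8050 among the 8196 tested genes. MYH9, the gene of the myosin heavy chain that S100A4 binds, had 6.58 and 7.49 FPKM in miR-NC cells and 5.77 and 6.33 FPKM in miR-187 cells and did not pass the test (limma, adjusted p = 0.513). There was thus about as much S100A4 as MYH9 mRNA with miR-NC, a ratio of 0.972 ± 0.131, and far less with miR-187, a ratio of 0.0830 ± 0.0120 (SD, n = 2).

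S100A3, a zinc- and calcium-binding protein best known from the hair cuticle, and S100A2, a mostly nuclear protein, were lower by nearly the same factor. S100A3 (ENSG00000188015) had 36.0 and 42.8 FPKM in miR-NC cells and 10.97 and 12.9 FPKM in miR-187 cells, a log2 fold change of -1.64 ± 0.17 (SE). S100A2 (ENSG00000196754) had 33.1 and 36.2 FPKM in miR-NC cells and 11.3 and 9.97 FPKM in miR-187 cells, a log2 fold change of -1.61 ± 0.17 (SE). The levels of the pair overlapped between the genes in both groups, so the data do not order them, while both stayed above S100A4 and below S100A13. MDM2, a ubiquitin ligase gene whose product binds several S100 proteins, had 11.5 and 14.7 against 12.6 and 12.02 FPKM (limma, adjusted p = 0.774).

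S100A4, S100A3 and S100A2 are also next to each other among the S100 genes of the cluster, all on the minus strand of chromosome 1 (GRCh38, GENCODE 29): S100A4 at chr1:153543613-153550136, S100A3 at chr1:153547329-153549372 and S100A2 at chr1:153561108-153567890. S100A3 lies within the span of S100A4 on the same strand, with no exonic base shared. On one side of this stretch comes S100A5, which was not among the 10 genes, with 0.578 and 0.378 FPKM in the miR-NC libraries and listed at 0 in both miR-187 libraries. Beyond it lies S100A6 (chr1:153534599-153536244), and on the other side lie S100A16 (chr1:153606886-153613145), S100A14 (chr1:153614255-153616986) and S100A13 (chr1:153618787-153631360). S100A10 (chr1:151982915-151994390) and S100A11 (chr1:152032506-152047907) stand apart from the rest of the cluster, and S100P lies on another chromosome, at chr4:6693069-6697170. The members flanking the stretch, S100A6 and S100A16, had log2 fold changes of -0.59 ± 0.09 and -0.18 ± 0.08 (SE).

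S100A10, or p11, differs from its relatives in having lost calcium binding: it is held in the active shape and pairs with annexin A2. It was the member of the abundant group furthest below its control level. S100A10 (ENSG00000197747) had 1077 and 1114 FPKM in miR-NC cells and 575 and 543 FPKM in miR-187 cells, a log2 fold change of -0.97 ± 0.09 (SE). ANXA2, the annexin A2 gene, was listed at 13428 and 11604 FPKM in miR-NC cells and at 10977 and 10692 FPKM in miR-187 cells (limma, adjusted p = 0.0613). S100A10 mRNA per ANXA2 mRNA was therefore 0.0881 ± 0.0112 with miR-NC and 0.0516 ± 0.00113 with miR-187 (SD, n = 2). AHNAK, a giant scaffold protein that joins the S100A10 and annexin A2 complex at the membrane, fell from 10.3 and 13.6 FPKM to 6.29 and 8.32 FPKM (limma log2 fold change -0.64 ± 0.22 SE, adjusted p = 0.0450). DLC1, a GTPase-activating protein that also binds S100A10, fell from 7.78 and 6.50 FPKM to 3.73 and 2.45 FPKM (limma log2 fold change -1.01 ± 0.25 SE, adjusted p = 0.0114). The AHNAK call was lost without miR-NC replicate 2 and without either miR-187 replicate, and the DLC1 call without miR-187 replicate 2. With the libraries scaled to the median gene, neither passed.

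S100A11 pairs with annexin A1 and has roles in membrane repair and growth control. It was the most abundant S100 gene in both groups. S100A11 (ENSG00000163191) had 1554 and 1437 FPKM in miR-NC cells and 1059 and 977 FPKM in miR-187 cells, a log2 fold change of -0.55 ± 0.09 (SE). ANXA1 went the other way, from 1577 and 1476 FPKM to 1881 and 1792 FPKM, and was the one gene of the binding-partner list that rose (limma log2 fold change 0.27 ± 0.08 SE, adjusted p = 0.0294). That call was lost without miR-NC replicate 2 and without either miR-187 replicate. S100A11 and ANXA1 mRNA stood close to 1 to 1 with miR-NC, at a ratio of 0.980 ± 0.00836, and at 0.554 ± 0.0128 with miR-187 (SD, n = 2). A ratio within a library is not altered by multiplying that library by a factor. With the libraries scaled to the median gene, ANXA1 was still higher with miR-187, and by more, but it did not pass.

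S100A6, or calcyclin, binds annexins and the calcyclin-binding protein CACYBP, a part of ubiquitin ligase complexes that degrade beta-catenin. S100A6 (ENSG00000197956) had 1403 and 1386 FPKM in miR-NC cells and 962 and 887 FPKM in miR-187 cells, a log2 fold change of -0.59 ± 0.09 (SE). CACYBP fell from 86.6 and 93.9 FPKM to 46.4 and 36.4 FPKM (limma log2 fold change -1.11 ± 0.15 SE, adjusted p = 0.000409). Here the partner was lower by more than the S100 gene, and S100A6 per CACYBP was 15.5 ± 1.02 with miR-NC and 22.5 ± 2.56 with miR-187 (SD, n = 2). ANXA11, an annexin that S100A6 binds, fell from 3.29 and 2.79 FPKM to 1.18 and 0.945 FPKM (limma log2 fold change -0.97 ± 0.23 SE, adjusted p = 0.0101), a call that was lost without miR-187 replicate 2. SUGT1, a co-chaperone that S100A6 binds, fell from 28.6 and 31.9 FPKM to 20.2 and 18.4 FPKM (limma, adjusted p = 0.0147), a call that was lost when any library but miR-NC replicate 1 was left out.

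S100A16, a widely expressed member whose N-terminal EF-hand binds calcium poorly, stood closest to its control level. S100A16 (ENSG00000188643) had 1062 and 1049 FPKM in miR-NC cells and 940 and 921 FPKM in miR-187 cells, a log2 fold change of -0.18 ± 0.08 (SE), which is above the median of all tested genes. The order of the abundant genes differed between the groups. With miR-NC it was S100A11, S100A6, S100A10 and S100A16, and the library ranges of neighbours in that order did not overlap. With miR-187 it was S100A11, then S100A16 and S100A6, whose ranges overlapped, and then S100A10. S100A16 per S100A10 was 0.964 ± 0.0316 with miR-NC and 1.67 ± 0.0440 with miR-187 (SD, n = 2).

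**Figure D2:**
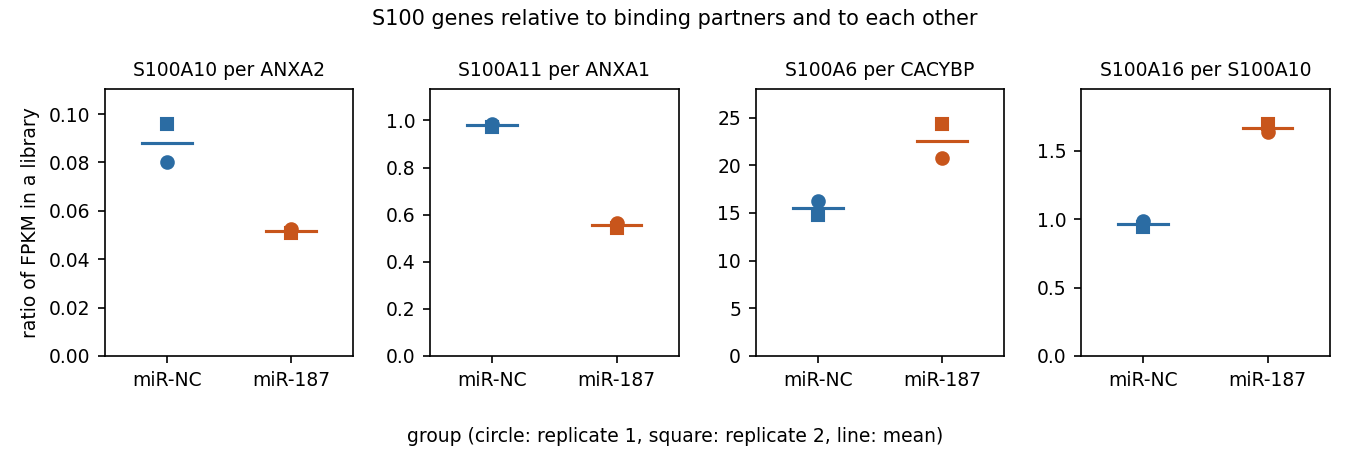
Ratio of FPKM within each library for S100A10 per ANXA2, S100A11 per ANXA1, S100A6 per CACYBP and S100A16 per S100A10, with circles for replicate 1, squares for replicate 2, lines for the mean and each axis starting at 0. The first 2 ratios are lower with miR-187 (0.0881 to 0.0516 and 0.980 to 0.554), the last 2 are higher (15.5 to 22.5 and 0.964 to 1.67), and no pair of groups overlaps. Groups did not overlap either in the FPKM of 65.4% (lower) and 5.93% (higher) of all tested genes. The share among ratios of other gene pairs was not computed.

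S100A13 takes part in the release of FGF1, a growth factor without a signal peptide, together with synaptotagmin 1. S100A13 (ENSG00000189171) had 97.0 and 125 FPKM in miR-NC cells and 74.4 and 70.0 FPKM in miR-187 cells, a log2 fold change of -0.60 ± 0.14 (SE). The miR-NC libraries differed more for this gene than for the abundant members. FGF1 fell from 55.3 and 59.1 FPKM to 26.1 and 20.8 FPKM (limma log2 fold change -1.26 ± 0.16 SE, adjusted p = 0.000264), and it had the smallest adjusted p in the binding-partner list. SYT1, the synaptotagmin 1 gene, had 2.05 and 2.16 FPKM in miR-NC cells and 1.93 and 2.08 FPKM in miR-187 cells (limma, adjusted p = 0.892). S100A13 shares 536 of its 2216 exonic bases with AL162258.1 on the same strand, whose own level was 0.148 to 1.13 FPKM, and 235 with S100A1 on the opposite strand, which was listed at 0. S100A6 shares 23 exonic bases with an antisense gene. How the counting treated strand is not stated, so reads in these bases cannot be assigned with certainty.

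How far the S100 genes stood from the rest of the transcriptome depended on how the libraries were scaled. Among all tested genes 27.3% passed limma at an adjusted p of 0.05 as lower on FPKM as deposited, and 1.49% as higher. The median log2 fold change of the tested members was -0.79, against -0.39 for all tested genes. With median-of-ratios scaling, which sets the typical gene to no change, 3.70% of tested genes passed as lower and 4.67% as higher, and the median of all genes was -0.01. With TPM (each library rescaled to 1 sum) 31.6% passed as lower and 1.35% as higher. With quantile normalization the shares were 3.89% and 3.57%, and with libraries scaled by what lies outside their 100 most abundant genes they were 9.04% and 2.99%. Under median of ratios, S100A2, S100A3 and S100A4 had log2 fold changes of -1.15, -1.18 and -2.07, S100A10 was at -0.48, and S100A6, S100A11 and S100A13 were at -0.10, -0.07 and -0.12. Scaled in this way, S100A6 was at 1294 and 1058 with miR-NC and at 1115 and 1062 with miR-187, so that its groups overlapped, as did those of S100A11. S100A16 turned to 0.31, and to 0.088 when the 100 most abundant genes were kept out of the scaling. Set against the median tested gene, S100A4 lay between -2.17 and -1.94 on the log2 scale over the 5 scalings. S100A3 lay between -1.25 and -1.17 and S100A2 between -1.23 and -1.14. All scalings but quantile normalization multiply a library by 1 factor, which moves a gene and the median gene nearly alike. Closeness among those settings was therefore given in advance. With a pseudocount of 0.1 on FPKM as deposited, S100A4 lay at -3.03 from the median gene, S100A3 at -1.23 and S100A2 at -1.20. Over the 5 scalings S100A10 lay between -0.83 and -0.47 relative to the median gene, S100A6 between -0.47 and -0.10, S100A11 between -0.48 and -0.06 and S100A13 between -0.31 and -0.11. S100A16 lay between -0.06 and 0.32, and its direction relative to other genes is not fixed by these data.

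**Figure D3:**
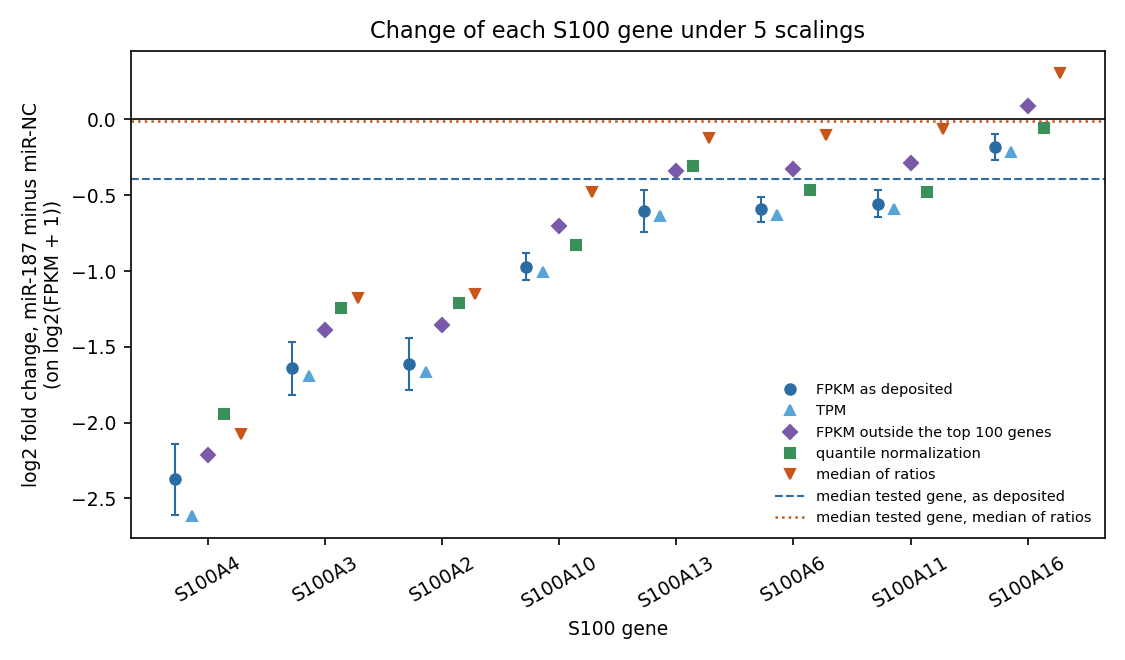
Log2 fold change (miR-187 minus miR-NC) of each S100 gene under 5 scalings of the libraries, with SE bars for FPKM as deposited, and dashed and dotted lines for the median tested gene as deposited (-0.39) and under median of ratios (-0.01). S100A4, S100A3 and S100A2 lie below -1 under each scaling, and S100A16 crosses 0 under median of ratios (0.31) and under scaling by the genes outside the top 100 (0.088).

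Of the 10 members, S100A4 was the one with a match to the miR-187 seed in the 3′ UTR, searched in the longest 3′ UTR of each gene. Its match is a 7mer-m8 at chr1:153543664-153543670 (GRCh38, minus strand), starting at base 89 of a 3′ UTR of 146 bases. It is shown because it belongs to the member furthest below its control level, with the seed match in capitals:
S100A4 3′ UTR site: ctggctccttcAGACACGtgcttgatgct
The match lies in the 3′ UTR of 4 of the 6 annotated S100A4 transcripts and in the other 2, which are noncoding. Among the 7120 tested genes with an annotated 3′ UTR, 311 (4.37%) held a 7mer or 8mer match. S100A2 and S100A3, which share the low position with S100A4, had no match of any kind in any annotated transcript. S100A13 held AGACACG in 1 noncoding transcript of 6, at chr1:153626908-153626914. A match is a description of the letters and does not show that the site was used.

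The 3′ UTRs of the S100 genes are short. Among the tested members they ran from 96 to 648 bases, with a median of 202, against a median of 1397 bases for the tested genes that have one. No member's 3′ UTR matched the miR-NC seed (7mer-m8 TAGTACA), for which 14.3% of tested genes had a 7mer or 8mer match. S100A10 held TAGTACA in its coding region, at chr1:151983188-151983194. Transcripts of the tested members measured 514 to 1202 bases, and the 947 tested genes with transcripts in that range had a median log2 fold change of -0.35, against -0.40 for the 7120.

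The promoter windows of S100A4, S100A3 and S100A2 are shown because these neighbours were the lowest members under each scaling. Windows of 250 bases before to 50 after each start were read from RefSeq (GRCh38.p14) and searched on both strands for a TATA box (TATAAA), a GC box (GGGCGG) and an AP-1 motif (TGANTCA), which were chosen after the values were seen. The match is in capitals:
S100A4 promoter, chr1:153545821-153545848, minus strand: cctggctggggTATAAAtaggtcagacc
S100A3 promoter, chr1:153549466-153549494, minus strand: ggaatcaggagTGAGTCActgggctagca
S100A2 promoter, chr1:153565879-153565907, minus strand: ggagtgggctgTGACTCAcaggcatgtca
The TATA box of S100A4 begins 31 bases before the start, the AP-1 motif of S100A3 225 bases before it and that of S100A2 52 bases before it. The AP-1 letters were in 2 of the 10 S100 genes, these 2, and in 9.37% of all genes. S100A2 has another window, chr1:153563838-153564137, without them, and which start these cells use is not known here. TATAAA was in 3 of 10 (S100A4, S100A13 and S100P) against 14% of all genes. The GC box was in 6 of 10 (S100A3, S100A6, S100A10, S100A11, S100A13 and S100A16) against 48.3% of all genes. A gene was counted if any of its windows held the letters, also in the share of all genes. S100A16 has another window, chr1:153613088-153613387, without a GC box. S100A13 has windows without it at chr1:153627456-153627755 and chr1:153627190-153627489.

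The rest of the family was nearly silent. Of 11 further S100 genes, 10 were listed at 0 in all 4 libraries, among them S100A8, S100A9 and S100A12, the calgranulins of myeloid cells, and S100B, a marker of glia. S100A5 was the exception described above. The fused-type S100 genes of the skin barrier, including FLG and HRNR, were at 0.15 FPKM or less in every library.

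The S100 proteins' partners gave a mixed picture. Of 26 binding partners, 23 were tested, of which 10 (43.5%) fell, 1 rose and 12 did not pass (limma, adjusted over all tested genes), beside 27.3% lower among all tested genes. With p adjusted over the list alone the counts were 12 lower and 1 higher. The median log2 fold change of the list was -0.35, against -0.39 for all tested genes. Among those that fell was TGM2, a transglutaminase that crosslinks S100 proteins, from 425 and 461 FPKM to 323 and 301 FPKM (limma log2 fold change -0.50 ± 0.10 SE, adjusted p = 0.00398). With median-of-ratios scaling the list median was 0.09, CACYBP and FGF1 fell and TPM1, a tropomyosin gene, rose. The count of 10 dropped most without miR-NC replicate 2 and without either miR-187 replicate. The number of all tested genes called lower dropped in those settings too, so the loss is not particular to the partners. CACYBP and FGF1 were the partners that fell under all 5 scalings, and with TGM2 they were those that fell whichever library was left out.

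Receptors of secreted S100 proteins were few. Of 10 receptor genes, 4 were tested, and none passed (limma, adjusted over all tested genes). The same test called 27.3% of all tested genes lower, and 31.6% with TPM. The median log2 fold change of the 4 was -0.42, against -0.39 for all tested genes. At an unadjusted p under 0.05, and also adjusted over the list alone, 2 were lower, ALCAM and CD33, and both passed over all tested genes with TPM and without miR-NC replicate 1. ALCAM, a cell adhesion molecule, had 7.86 and 11.01 FPKM in miR-NC cells and 5.75 and 5.80 FPKM in miR-187 cells (limma log2 fold change -0.61 ± 0.22 SE, adjusted p = 0.0580). CD33, a sialic acid-binding lectin, had 25.5 and 30.9 FPKM against 22.1 and 18.6 FPKM (limma log2 fold change -0.45 ± 0.17 SE, adjusted p = 0.0635). With median-of-ratios scaling ALCAM was at -0.18 and CD33 at 0.018, and neither passed. FGFR1, a receptor of the FGF1 that S100A13 helps to release, was near the filter, at 1.22 and 1.79 against 0.913 and 0.885 FPKM (limma, adjusted p = 0.188). BSG, or basigin, a receptor of S100A8 and S100A9, was the abundant one, at 398 and 417 against 408 and 445 FPKM (limma, adjusted p = 0.624). AGER, the gene of RAGE, had 0.603 and 0.278 FPKM in miR-NC cells and 0.118 and 0.155 FPKM in miR-187 cells. TLR4 had 0.862 and 1.32 FPKM against 0.744 and 0.428 FPKM.

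Calcium-binding EF-hand proteins outside the family were compared to set the S100 genes beside others of their fold. Of 43 such genes, 33 were tested, of which 14 (42.4%) fell and none rose (limma, adjusted over all tested genes, with the same counts adjusted over the list alone, and 17 and 0 at an unadjusted p under 0.05), beside 27.3% lower and 1.49% higher among all tested genes. The list median was -0.39, that of all tested genes. SPARC, a secreted matrix glycoprotein with EF-hands, fell from 80.3 and 88.9 FPKM to 11.8 and 12.2 FPKM (limma log2 fold change -2.72 ± 0.15 SE, adjusted p = 5.9e-07). MYL12B, a myosin regulatory light chain, fell from 875 and 899 FPKM to 557 and 512 FPKM (adjusted p = 0.000261, limma). CAPN2, the catalytic subunit of a calpain protease, fell from 38.0 and 51.1 FPKM to 17.4 and 20.2 FPKM (adjusted p = 0.000823, limma). CALM2, a calmodulin gene, fell from 1915 and 1567 FPKM to 1159 and 939 FPKM (adjusted p = 0.00107, limma). Under median-of-ratios scaling the lower calls were 3, CAPN2, CAPNS1 (the small calpain subunit) and SPARC, beside 3.70% lower among all tested genes, at a list median of 0.08. The count of 14 dropped without miR-NC replicate 2 and without either miR-187 replicate. So did the number of all tested genes called lower. SPARC, MYL12B, CAPN2 and CALM2 passed each time.

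Around the S100 cluster, the share of other genes that fell was near that of all tested genes. The neighbouring genes listed reach far: measured from the start of S100A6, PI4KB starts at -2243 kb and HAX1 at 738 kb. Of 33 neighbouring genes on 1q21 in the table, 21 were tested, of which 7 (33.3%) fell and 1 rose (limma, adjusted over all tested genes), beside 27.3% lower and 1.49% higher among all tested genes. With p adjusted over the list alone the counts were 11 and 1, and their median log2 fold change was -0.41 (0.05 under median of ratios). Under median of ratios 2 neighbours fell, HAX1 and PI4KB, and 3 rose, PSMD4, RAB13 and TPM3. In that scaling 3.70% of all tested genes were lower and 4.67% higher. The count of 7 on FPKM as deposited dropped without miR-NC replicate 2 and without either miR-187 replicate. So did the number of all tested genes called lower. HAX1, PI4KB and SLC39A1 passed each time. PI4KB, a lipid kinase of the Golgi, had the lowest log2 fold change of them, from 5.04 and 5.27 FPKM to 1.36 and 1.45 FPKM (limma log2 fold change -1.35 ± 0.24 SE, adjusted p = 0.00194). Its mean FPKM was 3.67-fold lower, between S100A4 and the pair of S100A3 and S100A2 (3.30-fold and 3.25-fold). Its place on the log2 scale depended on the pseudocount: with 1 it lay above S100A3 and S100A2, and with 0.1 (-1.80) below both (-1.71 and -1.69). HAX1, a mitochondrial survival factor, fell from 49.2 and 53.6 FPKM to 22.9 and 19.7 FPKM (limma log2 fold change -1.24 ± 0.15 SE, adjusted p = 0.000261). SLC39A1, a zinc importer, fell from 55.9 and 66.6 FPKM to 36.3 and 33.3 FPKM (adjusted p = 0.00278, limma), and SNAPIN, a vesicle transport protein, from 16.2 and 19.6 to 11.5 and 8.96 FPKM (adjusted p = 0.0147, limma). TPM3, a tropomyosin gene, rose, with a log2 fold change of 0.38 ± 0.10 (SE, limma adjusted p = 0.0156). It passed as higher under all 5 scalings, and the call was lost without either miR-187 replicate. The closest tested neighbour on the S100A13 side, CHTOP, had 23.1 and 25.9 FPKM in miR-NC cells and 18.3 and 17.98 FPKM in miR-187 cells (limma, adjusted p = 0.0740). CHTOP starts 99.4 kb from the start of S100A6. SNAPIN, which fell, starts at 124 kb, and ILF2, with a log2 fold change of -0.08 ± 0.11 (SE, limma adjusted p = 0.584), at 127 kb.

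**Figure D4:**
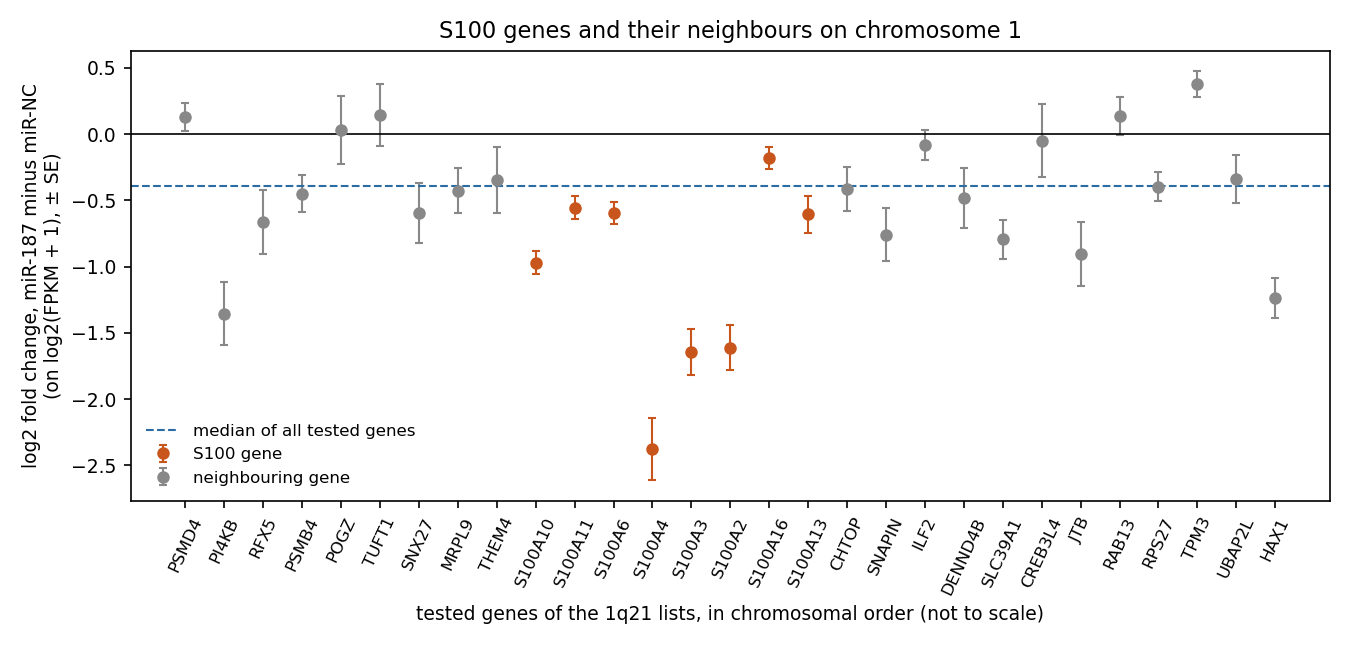
Log2 fold change (miR-187 minus miR-NC, ± SE) of the tested S100 genes (orange) and neighbouring genes of 1q21 (grey) in chromosomal order, evenly spaced and not to scale, with a dashed line at the median of all tested genes (-0.39). S100A4, S100A3 and S100A2 (-2.38, -1.64 and -1.61) are adjacent and lie below the neighbours drawn on this log2(FPKM + 1) scale, of which PI4KB (-1.35) is the lowest, whereas with a pseudocount of 0.1 PI4KB (-1.80) lies below S100A3 and S100A2.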

How the data were processed

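The authors deposited 1 FPKM value per gene and library. Their processing notes name HISAT2, StringTie, DESeq2 and the build hg19, without versions. No count table was used, so depth is unknown: low values fell on steps of a single fragment in only 29.0% to 32.2% of cases (within 0.1 of a step). FPKM divides by the mapped fragments of a library, so a larger share taken by abundant genes lowers the rest. StringTie can divide fragments between overlapping genes.

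Of 62492 genes, 49 chromosome Y copies of pseudoautosomal genes were left out, and 58611 of the remaining 62443 were matched to symbols. log2(FPKM + 1) was fitted on group with limma 3.58.1 (R 4.3.3; intensity trend, two-sided, Benjamini-Hochberg over the 8196 tested genes, threshold 0.05; 2 residual and 10.9 prior degrees of freedom). The step was tested on simulated data in which a small part of the genes changed, up and down alike. No shift of most genes was simulated, so that test does not check the calls against such a shift. The members and all lists were chosen with earlier results of these data known. Named were all members, the 4 genes of each other list with the smallest adjusted p, and the 3 genes most like the members with the largest and the smallest fall. Other genes were named after their values were seen. LOR and PECAM1 were not matched and are not analysed here. A few listed genes are not reported here. The deviations of replicate 1 from its group mean correlated at -0.06 between groups over 8196 genes, so replicate numbers were not taken as pairs. Alternatives were pseudocounts of 0.1 and 0.5, other filters, 4 further scalings, no intensity trend, a replicate block and leaving out each library. 3′ UTRs and coordinates come from GENCODE 29 (GRCh38), with nothing converted from hg19. Promoters and miR-187-3p come from RefSeq (GRCh38.p14), mimics from the study's list of oligos. Python 3.11.15, pandas 2.3.3, numpy 2.4.6 and matplotlib 3.10.9 were used.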

Additional observations from a re-analysis of the deposited data

How the results depend on the processing

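With median-of-ratios scaling 303 genes were lower and 383 higher, in place of 2236 and 122, with 3 EF-hand genes, 2 binding partners and 2 neighbours lower and a median of -0.30 for the S100 members. With quantile normalization the counts were 319, 293, 5, 3 and 3 and the median -0.65, and with libraries scaled on the genes outside the top 100 they were 741, 245, 6, 3 and 3 and -0.52. S100A16 reversed to 0.31 under median of ratios and to 0.088 under the scaling outside the top 100, and CD33 reversed to 0.018 under median of ratios. Without the filter on low values, 0 genes passed limma in either direction, with 0 in the EF-hand, partner and neighbour lists, while 3838 were lower and 351 higher at an unadjusted p under 0.05 among 25001 genes. Without the intensity trend 48 genes were higher and 6 partners lower.

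Leaving out 1 library at a time (the lone library of a group is then assumed to vary like the other group) gave 717 to 2862 lower and 71 to 107 higher genes, 8 to 17 EF-hand genes, 3 to 9 partners and 3 to 8 neighbours lower, and a member median of -0.89 to -0.74. The lowest counts came without miR-NC replicate 2 (717 lower) and without miR-187 replicate 2 (753 lower). The replicate block left 2491 genes lower and 142 higher. It was not used, since replicate numbers did not pair the libraries. With 2 libraries a group and depth unknown, values near 0, such as those of S100A4 with miR-187, are the least certain.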

Other observations

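The tested genes outside the family with profiles most like that of S100A4, by Euclidean distance between mean-centred log2(FPKM + 1) values over the 4 libraries, were LINC01605 (distance 0.294), SPARC (0.383) and SH2D1B (0.416). LINC01605, a long noncoding RNA, had 19.5 and 24.0 FPKM in miR-NC cells and 2.76 and 3.19 FPKM in miR-187 cells. SH2D1B, the gene of an SH2-domain adaptor, had 16.7 and 19.3 FPKM against 3.06 and 2.14 FPKM. The genes most like S100A16 were PDIA6 (0.0124), TCEAL4 (0.0244) and SPICE1 (0.0257). PDIA6, a disulfide isomerase of the endoplasmic reticulum, had 81.7 and 80.5 FPKM in miR-NC cells and 71.7 and 70.0 FPKM in miR-187 cells. With 4 libraries in 2 groups, such likeness is mostly the size of the group difference.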
